A study of Mus musculus with 58 samples.

Results

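To ask how far the transcriptome of young hematopoietic stem cells (HSCs) stood from the ad lib level after a course of caloric restriction (CR) and refeeding, 4 RNA-seq libraries of refed HSCs (YCRRF) were set against 4 of ad lib HSCs (YAL). These 8 of the 58 samples of the series were chosen by feeding group and assay alone. YCRRF mice had eaten 20% less in the first week of CR and 40% less from then on, for 4 weeks in all, and were then fed ad lib for 4 weeks. YAL mice had ad lib food for 4 weeks, and the 4 YCR libraries, set beside them where useful, came from mice at the end of the 4 weeks of CR. All of these were wild-type C57BL/6 males of 3 to 4 months by the labels. For a gene list and a comparison of ages, libraries of old C57BL/6 males of 24 to 26 months were also used. OAL mice were fed ad lib for life and OCR mice had lifelong CR of 40%. OCRRF mice were fed ad lib for 4 weeks after the same lifelong CR. HSCs were sorted from bone marrow as PI-, lineage-negative, Sca-1+, c-Kit+ cells that were CD34-, Flk2- and CD150+, a gate that enriches for the most primitive cells of the blood system. The schedule of the YCRRF mice was longer than that of the YAL mice by the weeks of refeeding. Whether the ad lib mice were killed at the same age is not given in the sources used here, so refeeding and any difference in age cannot be told apart. The labels do not say whether a library is 1 mouse or a pool. The p-values therefore measure only the spread between these libraries.

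HSCs of adult marrow are mostly quiescent. Entry into the cell cycle requires origin licensing in G1, in which the MCM helicase is loaded onto DNA, then DNA synthesis in S phase and chromosome condensation and segregation in G2 and M. Transcripts of the first 2 steps are largely driven by E2F factors. Those of the last are controlled by the DREAM complex and by MuvB with B-Myb and FoxM1. The mRNA of these genes is therefore low in resting cells and high in cycling ones. CR is known to lower nutrient and growth hormone signalling, and refeeding restores food intake.

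Of the 4 refed libraries 2 stood apart, which touches the results that follow. Total counts were 17454892 to 35676728 in the YAL libraries and 11102898 to 36579392 in the YCRRF libraries, where replicate 4 was the shallow one. In YCRRF replicate 3 mRNAs of cytosolic ribosomal proteins made up 81215 CPM (counts scaled to a common library total), against 31417 to 39862 in the other YCRRF libraries and 34135 to 40493 in the YAL libraries. In the same library mitochondrial genes took 4.09% of the counts, against 1.09 to 1.602% in the other 7, and the 10 most abundant genes took 13.2%, against 3.49 to 4.68%. Its counts on olfactory and vomeronasal receptor genes, which HSCs are not known to express and which serve as a measure of background reads, were 427 CPM against 96.2 to 202 CPM in the other 7. None of these measures separated the groups by exact permutation tests, two-sided, over 13 measures (total counts p = 0.8286, ribosomal protein mRNAs p = 0.886, mitochondrial genes p = 0.714, adjusted p = 0.943 for each). The smallest p that 4 libraries against 4 allow is 0.0286. Several values are also given without YCRRF replicate 3. Within each group the libraries differed by far more than counting error, so none was counted as a copy of another.

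**Figure D1:**
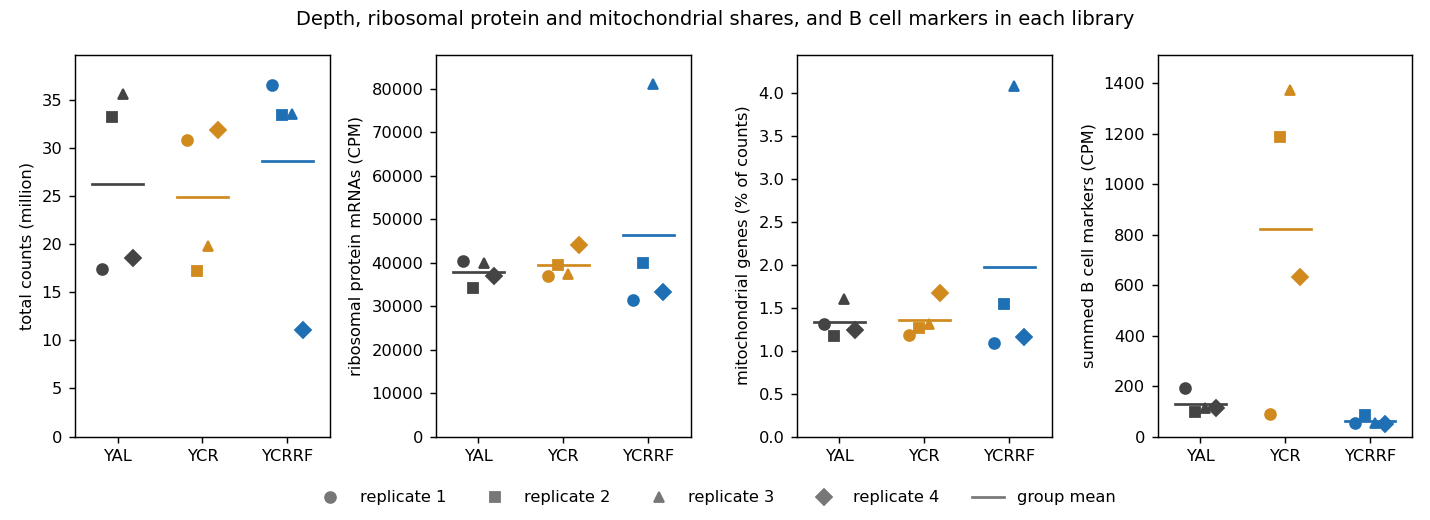
Each point is 1 library of YAL, YCR or YCRRF HSCs (marker shape: replicate number; bar: group mean), with total counts, summed CPM of cytosolic ribosomal protein mRNAs, mitochondrial genes in % of counts and summed CPM of 13 B cell markers on linear axes from 0. YCRRF replicate 3 lies at 81215 CPM and 4.09%, above the other 11 libraries, YCRRF replicate 4 has the lowest total at 11102898 counts, and the 4 YCRRF libraries lie at 47.9 to 86.2 CPM of B cell markers.

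The HSC label held in the 8 libraries. Transcripts of Mecom (220 to 397 CPM) and Hlf (546 to 672 CPM), transcription factors of HSCs, were abundant in each. So were those of Procr, which encodes EPCR (212 to 270.1 CPM), Slamf1, which encodes CD150 (60.4 to 87.2 CPM), and Kit (1023 to 1634 CPM). Il7r, a lymphoid progenitor gene, was at 1.63 CPM or less. Flt3, which encodes Flk2, was at 8.13 to 34.6 CPM, and Cd34 mRNA was present at 138 to 189 CPM although the gate excluded CD34 on the surface. Of 30 genes listed for HSC identity and quiescence, 20 were higher and 10 lower in YCRRF HSCs, with a median log2 fold change of 0.067, against 0.023 over all genes tested.

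No gene passed the test between refed and ad lib HSCs. Of 19334 genes tested with edgeR, 0 were DEGs at an adjusted p under 0.05 with more than a 1.2-fold difference (0%), and the smallest adjusted p was 0.531, shared by Tgfbi, Iglc3 and Zfp365. At an unadjusted p below 0.05 there were 714 genes (3.69%), with 350 higher (1.81%) and 364 lower (1.88%) in YCRRF. In 374 genes every YCRRF library lay below every YAL library (1.93%) and in 245 every one lay above (1.27%). DESeq2 called 15 of the same 19334 genes (0.0776%), 2 higher and 13 lower, of which 4 had a mean of at least 5 CPM, and 1022 at an unadjusted p below 0.05. With no filter on low counts edgeR called 40 of 43567 genes, 19 higher and 21 lower. Of the 40, 31 had a mean of at least 5 CPM, and 37 were also tested with the filter, where none was called. Tgfbi, Prim1, Tipin, Ncapd2, Uhrf1 and Serpina3g were among the 40. Of these 40, 4 belong to the cell cycle lists, 4 to the granulocyte markers and 3 to the B cell markers. Of the 19 higher genes 14 had their highest level in YCRRF replicate 3. When counts were simulated with the spread of these libraries, the test recovered 0% of genes changed 1.5-fold, 23.1% of those changed 2-fold and 57.9% of those changed 4-fold. A modest change in a single gene was thus mostly not detectable here. By the same test 48 of 18680 genes were DEGs between YCR and YAL HSCs (0.257%), 12 higher and 36 lower. Levels and counts follow by gene group.

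Genes of DNA replication and mitosis were lower in refed than in ad lib HSCs. Of 43 S phase genes, all tested, 37 were lower, with a median log2 fold change of -0.37 against 0.023 over all genes tested. At an unadjusted p below 0.05, 13 of the 43 were lower (30.2%, against 1.88% of all genes tested) and none was higher, although none passed adjustment (smallest adjusted p = 0.995). In 8 of them (18.6%, against 1.93%) every YCRRF library lay below every YAL library. Of 54 G2/M genes, all tested, 42 were lower, with a median of -0.30, 5 were lower at an unadjusted p below 0.05 (9.26%) and 3 were lower in every YCRRF library. These lists were chosen with earlier results of these data known, so their shares are descriptions and not tests. In bulk libraries fewer cycling cells and less of these mRNAs per cell cannot be told apart.

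Promoters of many such genes are known to carry an E2F or cell cycle homology element, and 4 that do are printed to show them. Sequences are from RefSeq, build GRCm38.p6, 5′ to 3′ on the strand of the gene, and capitals mark the element. They run from 120 bases before an annotated start to 30 after. Mcm7 has 2 annotated promoters. Its printed window lies inside the gene, which by GENCODE begins at 138172422 on the - strand. For Prim1, Rrm1 and Mcm7 it is an E2F element (any of TTCCCGCC, TTTCCCGC, TTTCGCGC and TTTGGCGC, on either strand). For Cdk1 it is the cell cycle homology element bound by DREAM and MuvB (TTTGAA or TTCGAA, on either strand).
Prim1 (chr10:128015095-128015244, + strand): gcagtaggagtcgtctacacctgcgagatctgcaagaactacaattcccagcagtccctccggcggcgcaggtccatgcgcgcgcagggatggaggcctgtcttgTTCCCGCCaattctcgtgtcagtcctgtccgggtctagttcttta
Rrm1 (chr7:102441575-102441724, + strand): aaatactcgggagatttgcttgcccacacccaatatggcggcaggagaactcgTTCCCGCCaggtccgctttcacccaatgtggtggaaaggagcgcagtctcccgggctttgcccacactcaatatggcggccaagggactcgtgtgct
Mcm7 (chr5:138171854-138172003, - strand): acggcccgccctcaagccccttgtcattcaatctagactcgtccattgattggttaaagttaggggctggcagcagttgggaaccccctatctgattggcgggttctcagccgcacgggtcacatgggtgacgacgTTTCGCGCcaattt
Cdk1 (chr10:69352883-69353032, - strand): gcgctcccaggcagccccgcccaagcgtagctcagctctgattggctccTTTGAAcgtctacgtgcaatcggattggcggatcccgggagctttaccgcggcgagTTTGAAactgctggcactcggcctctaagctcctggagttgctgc
In the 300 bases around the start, 15 of the 31 S phase genes with a promoter in the table held an E2F element (48.4%), as did 11 of 18 origin licensing genes (61.1%) and 3 of 47 G2/M genes (6.38%), against 4% of all 27025 genes of the table and 6.98% of the 12232 tested genes found in it. The cell cycle homology element, a shorter motif, was in 36 of 47 G2/M genes (76.6%) and 6 of 31 S phase genes (19.4%), against 21.7% of all genes of the table. A match is a string of letters and not a measured binding site.

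Among S phase genes, Prim1, which encodes the catalytic subunit of primase (ENSMUSG00000025395, chromosome 10, 128015168 to 128030037 on mm10), is shown first. It was at 37.3, 50.8, 50.2 and 61.0 CPM in YAL libraries 1 to 4 and at 33.5, 20.9, 16.9 and 27.9 CPM in YCRRF libraries 1 to 4. The groups did not overlap, and its log2 fold change was -1.005 ± 0.24 (SE). Rrm1 (ENSMUSG00000030978, chromosome 7, 102441695 to 102469771) encodes the large subunit of ribonucleotide reductase, which makes the deoxynucleotides for DNA synthesis. It was at 160.3, 203, 166 and 188 CPM in YAL and 133, 93.6, 134 and 107 CPM in YCRRF HSCs, again without overlap (-0.61 ± 0.15). Tipin, which encodes a replication fork protection protein (ENSMUSG00000032397, chromosome 9, 64281581 to 64305424), was at 74.3 to 80.4 CPM in the YAL libraries and was at 55.6, 24.1, 37.5 and 52.6 CPM in the YCRRF libraries (-0.87 ± 0.24). YCRRF replicate 2 had the lowest level of Rrm1 and Tipin and replicate 3 that of Prim1. Without replicate 3 the log2 fold changes of Prim1, Rrm1 and Tipin were -0.86, -0.69 and -0.81. The other S phase genes lower at an unadjusted p below 0.05 were Mcm2, Gmnn, Rfc2, Cdca7, Mcm4, Uhrf1, Mcm6, Fen1, Dtl and Hells, and the 13 ranged from -0.37 to -1.03. Rfc2, a subunit of the clamp loader, was at 154 to 192 CPM in YAL and 113 to 146 CPM in YCRRF HSCs (-0.37 ± 0.13).

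Origin licensing and firing genes were lower in 15 of 22 tested, with a median of -0.36. Scores of this list, the median over its genes of log2 CPM minus the YAL mean in each library, were -0.14, -0.68, -0.43 and -0.00014 in YCRRF libraries 1 to 4 and -0.049, 0.047, -0.023 and 0.099 in YAL libraries 1 to 4, so that replicate 4 lay inside the ad lib range. Without YCRRF replicate 2 the median was -0.22, with 3 genes lower at an unadjusted p below 0.05 (against 2.30% of all genes). With all libraries 5 were (22.7%, against 1.88% of all genes), all subunits of the MCM helicase, from -0.35 for the smallest difference to -0.63 for Mcm7. Mcm7 was at 243, 249.6, 179 and 219 CPM in YAL and 202, 135, 108 and 131 CPM in YCRRF libraries, where replicate 1 overlapped the ad lib range. Mcm6, one of the 4 most abundant genes of the cell cycle lists, was at 393, 442, 411 and 450.1 CPM in YAL and 372, 258, 234 and 379.5 CPM in YCRRF libraries, without overlap (-0.45 ± 0.16). Mcm2 spanned 175 to 248 CPM in YAL and 117 to 195 CPM in YCRRF HSCs (-0.56 ± 0.18), and Mcm4 137 to 176 CPM in YAL and 85.3 to 134 CPM in YCRRF HSCs (-0.47 ± 0.16). For Mcm5, the subunit the study names, 1 YCRRF library was in the YAL range (153, 154, 143 and 175 CPM in YAL, 158, 55.5, 131 and 85.0 CPM in YCRRF, -0.54 ± 0.27).

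**Figure D2:**
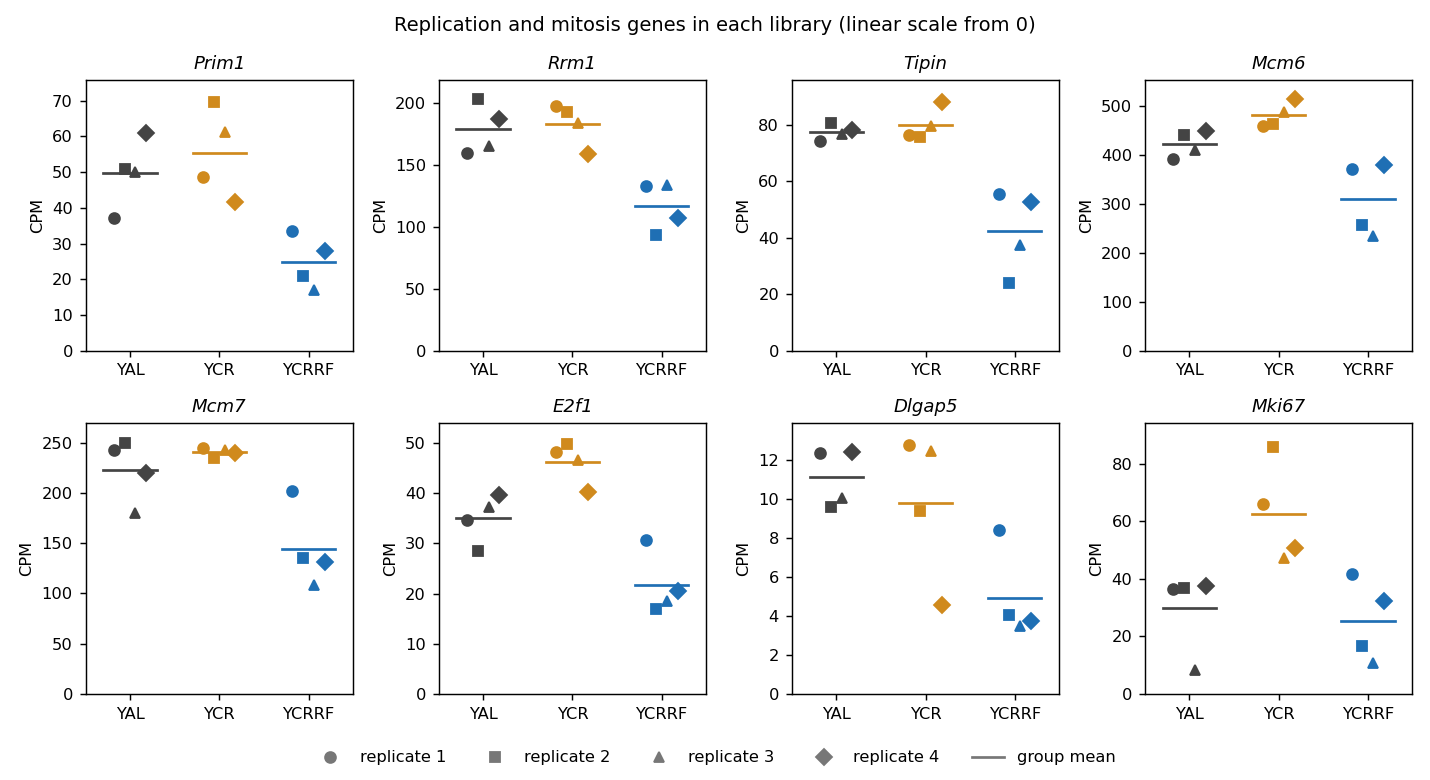
CPM of 8 replication and mitosis genes in each library (marker shape: replicate number; bar: group mean; linear axes from 0). In Prim1, Rrm1, Tipin, Mcm6 and Dlgap5 all 4 YCRRF libraries lie below all 4 YAL libraries, while in Mcm7, E2f1 and Mki67 the groups overlap.

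Genes of mitosis were lower by less regular steps. Dlgap5, a spindle assembly gene, was at 12.4, 9.57, 10.1 and 12.4 CPM in YAL and 8.37, 4.05, 3.47 and 3.71 CPM in YCRRF libraries (-1.17 ± 0.37). YCRRF replicate 1 was closest to the ad lib level. Ncapd2, a condensin subunit, spanned 53.2 to 88.7 CPM in YAL and 20.4 to 56.6 CPM in YCRRF HSCs (-0.87 ± 0.30), and Jpt1 111 to 122 CPM in YAL and 82.6 to 100.3 CPM in YCRRF HSCs (-0.30 ± 0.12). Of 28 kinetochore and spindle checkpoint genes 18 were lower, with a median of -0.21, and 4 were lower at an unadjusted p below 0.05 (14.3%, against 1.88%). There were 0 such genes without YCRRF replicate 2, where the median was -0.10, and 0 without YAL replicate 1. Scores of the list were 0.054, -0.83, -0.27 and -0.053 in YCRRF and 0.018, 0.064, -0.15 and 0.10 in YAL libraries, with YCRRF replicates 1 and 4 inside the ad lib range. Aurkb, the kinase of the chromosomal passenger complex, was at 7.80 to 13.1 CPM in YAL and 2.21 to 7.53 CPM in YCRRF HSCs (-0.93 ± 0.41). The outer kinetochore gene Spc25 was at 11.8 to 20.8 CPM in YAL and 6.53 to 14.8 CPM in YCRRF HSCs (-0.77 ± 0.32). Kntc1, which encodes a component of the spindle checkpoint, was at 6.68 to 15.3 CPM in YAL and 0.707 to 6.34 CPM in YCRRF HSCs (-1.32 ± 0.57). Tubb4b, a beta tubulin among the most abundant genes of these lists, was instead at 319 to 354 CPM in YAL and 338 to 431 CPM in YCRRF HSCs (0.19 ± 0.11).

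Among the regulators, E2f1, an activating E2F factor (ENSMUSG00000027490, chromosome 2, 154559407 to 154569892), was at 34.6, 28.5, 37.2 and 39.7 CPM in YAL and 30.6, 16.9, 18.5 and 20.4 CPM in YCRRF libraries (-0.69 ± 0.23). Replicate 1 lay inside the ad lib range. Its dimer partner gene Tfdp1 was at 151 to 181 CPM in YAL and 122 to 155 CPM in YCRRF HSCs (-0.36 ± 0.12). Lin9, a subunit of the MuvB core, was higher in every YCRRF library (10.3 to 21.0 CPM in YAL, 23.3 to 28.4 CPM in YCRRF, 0.80 ± 0.25). Of 19 E2F and pocket protein genes 12 were lower, with a median of -0.10. The D cyclins, their kinases and the CDK inhibitors differed little, with a median of -0.12 over 15 genes tested of 17. Ccnd2 was at 707 to 821 CPM in YAL and 716 to 762 CPM in YCRRF HSCs. Cdk4 was at 400.3 to 429.8 CPM in YAL and 365 to 409 CPM in YCRRF HSCs. Ccnd3 was the one member higher at an unadjusted p below 0.05 (309 to 334 against 336 to 387 CPM, 0.23 ± 0.096). Of 27 genes of recombination and crosslink repair 17 were lower (median -0.20), with Rad54b at 7.77 to 18.0 CPM in YAL and 0.178 to 5.88 CPM in YCRRF HSCs (-2.08 ± 0.81).

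The level of the lists in each library shows how far the refed libraries differed among themselves. S phase scores were 0.037, 0.055, -0.12 and 0.017 in YAL libraries 1 to 4 and -0.18, -0.86, -0.25 and -0.33 in YCRRF libraries 1 to 4. Every refed library lay below every ad lib one. G2/M scores were 0.077, -0.022, -0.040 and 0.068 in YAL and -0.079, -0.64, -0.36 and -0.11 in YCRRF libraries, with replicates 1 and 4 just below the lowest YAL library. YCRRF replicate 2 had the lowest score in both lists, with 40 of 43 S phase genes and 48 of 54 G2/M genes below their YAL mean. In replicate 1 these were 26 of 43 and 30 of 54. Replicate 2 was not the library with the high ribosomal protein and mitochondrial share. Without it the medians of the lists were -0.25 for S phase, with 9 genes lower at an unadjusted p below 0.05, and -0.21 for G2/M, with 3 such genes. Without YCRRF replicate 1 that count of G2/M genes was 13. Without YCRRF replicate 3 the medians were -0.38 and -0.26, with 16 and 5 such genes. The share of all genes lower at that p also rose, from 1.88% with all libraries. It was 2.94% without YCRRF replicate 1, 2.30% without replicate 2 and 2.77% without replicate 3.

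**Figure D3:**
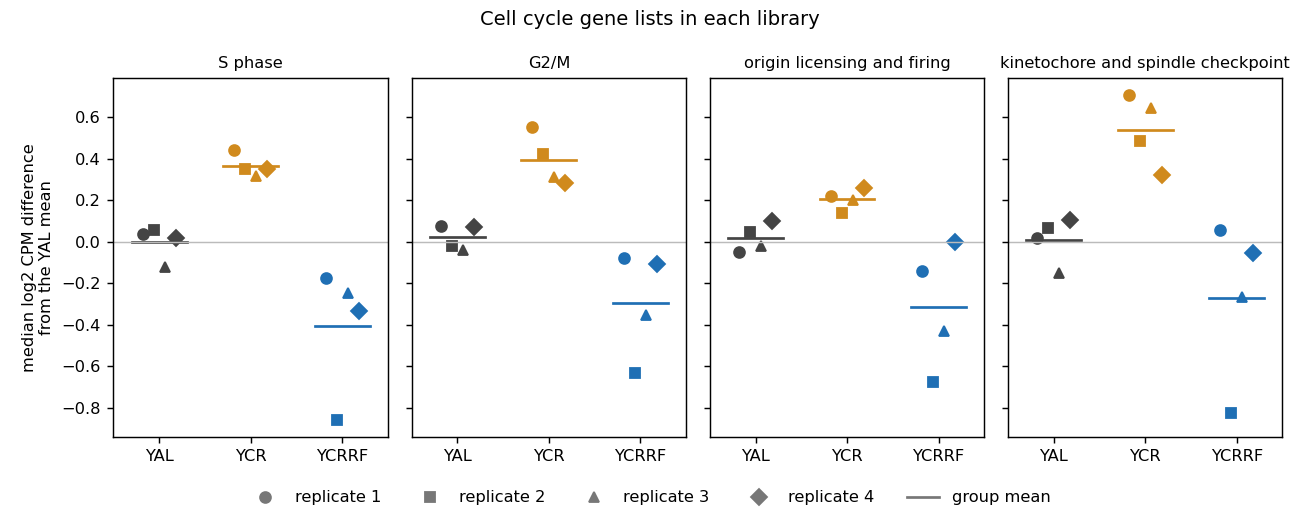
Each point is the score of 1 library (marker shape: replicate number; bar: group mean), the median over the list of log2 CPM minus the YAL mean, so that the YAL libraries scatter around 0. In the S phase and G2/M panels all YCRRF libraries lie below all YAL libraries, and YCRRF replicate 2 is the lowest in all 4 panels.

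Beside these, the YCR libraries, compared with the same 4 YAL libraries, had higher levels of both lists. S phase scores of YCR libraries 1 to 4 were 0.44, 0.35, 0.32 and 0.35 and G2/M scores 0.55, 0.42, 0.31 and 0.28. Of the 43 S phase genes 42 were higher in YCR than in YAL HSCs (median 0.34), with 0 DEGs, and of the 54 G2/M genes 45 were higher (median 0.36), with 1 DEG. Prim1 was at 41.6 to 69.6 CPM in the YCR libraries, Rrm1 at 159 to 198 CPM, Mcm6 at 459 to 514 CPM and E2f1 at 40.3 to 49.8 CPM. The comparisons of YCR and YCRRF share their ad lib libraries and are not independent of each other.

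Of 20 genes that the study names, 19 were tested in refed against ad lib HSCs, 11 of them lower and 8 higher. The proliferation marker Mki67 was at 36.4, 36.9, 8.19 and 37.5 CPM in YAL and 41.7, 16.6, 10.8 and 32.3 CPM in YCRRF libraries (-0.23 ± 0.50). Both groups contained low libraries, and YCR libraries were at 47.0 to 85.7 CPM. Cdk1, the mitotic kinase whose promoter is printed above, was at 33.6, 25.0, 28.6 and 35.2 CPM in YAL and 13.0, 10.6, 28.6 and 24.1 CPM in YCRRF libraries (-0.68 ± 0.32). Ccna2, cyclin A, was at 29.9 to 39.4 CPM in YAL and 19.0 to 39.1 CPM in YCRRF HSCs (-0.22 ± 0.23). The cytokinesis gene Ect2 was at 9.44 to 21.9 CPM in YAL and 1.53 to 16.7 CPM in YCRRF HSCs (-1.16 ± 0.66). Among checkpoint genes, Brca1 was at 3.85, 8.76, 6.72 and 11.2 CPM in YAL and 14.3, 8.73, 19.2 and 16.4 CPM in YCRRF libraries (0.94 ± 0.39). Chek1 was at 11.3 to 22.9 CPM in YAL and 14.2 to 24.6 CPM in YCRRF HSCs (0.18 ± 0.28). Chek2 was at 33.2 to 55.0 CPM in YAL and 29.8 to 48.5 CPM in YCRRF HSCs (-0.23 ± 0.24).

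Kdr, which encodes a VEGF receptor, was at 21.1, 19.2, 32.4 and 19.6 CPM in YAL and 20.0, 18.8, 9.09 and 11.3 CPM in YCRRF libraries, with the groups overlapping (-0.64 ± 0.31). The BMP receptor gene Bmpr1a was at 2.55 to 13.0 CPM in YAL and 6.67 to 9.55 CPM in YCRRF HSCs (0.092 ± 0.45). Its ligand gene Bmp4 was at 13.0 to 18.4 CPM in YAL and 14.3 to 28.1 CPM in YCRRF HSCs (0.40 ± 0.29). Spi1, the gene of PU.1, was at 67.9 to 87.8 CPM in YAL and 57.5 to 85.4 CPM in YCRRF HSCs (-0.079 ± 0.16), while the related Spib was at or below 4.52 CPM in all 8 libraries and was not tested. Of the autophagy genes that the study names, Sqstm1 was at 294 to 328 CPM in YAL and 297 to 332 CPM in YCRRF HSCs (0.017 ± 0.096). Ulk1 was at 125 to 197 CPM in YAL and 130.5 to 192 CPM in YCRRF HSCs (0.058 ± 0.17). Clu, whose mRNA marks aged HSCs, was at 83.4, 58.1, 79.2 and 78.1 CPM in YAL and 109.6, 102, 53.8 and 96.2 CPM in YCRRF libraries (0.27 ± 0.21). In YCR libraries it was at 20.1 to 38.0 CPM, where it was a DEG against YAL (-1.36 ± 0.20, adjusted p = 0.0263). Osmr, the oncostatin M receptor gene, was at 0.357 to 4.76 CPM in YAL and 2.42 to 12.0 CPM in YCRRF HSCs (1.49 ± 0.74). Of the genes of fatty acid use and its sensing, Acadl was at 155 to 199.97 CPM in YAL and 132 to 188 CPM in YCRRF HSCs (-0.088 ± 0.14). Prkaa2 was at 8.12 to 26.8 CPM in YAL and 3.94 to 19.5 CPM in YCRRF HSCs (-0.55 ± 0.50). Cpt1a, the gatekeeper of mitochondrial fatty acid import, was at 225, 236, 277 and 386 CPM in YAL and 206, 199, 137 and 234 CPM in YCRRF libraries (-0.53 ± 0.20). With YCRRF replicate 3 left out, the log2 fold change of Clu was 0.46, that of Bmp4 0.22, that of Ccna2 -0.37, that of Chek1 0.085 and that of Acadl -0.17.

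In each direction 10 genes were taken with a mean of at least 5 CPM, no overlap between the groups and the smallest p. The gene with the smallest p of those higher was Tgfbi, which encodes an extracellular matrix protein induced by TGF-beta (ENSMUSG00000035493, chromosome 13, 56609523 to 56639562). It was at 28.0, 19.7, 21.8 and 21.6 CPM in YAL, 50.0, 47.9, 45.9 and 64.4 CPM in YCRRF and 15.4 to 28.6 CPM in YCR libraries. Its log2 fold change of 1.196 ± 0.19 in YCRRF against YAL HSCs had an adjusted p of 0.531 with edgeR and 4.22e-06 with DESeq2. Gab2, a docking protein of cytokine receptor signalling (ENSMUSG00000004508, chromosome 7, 97081586 to 97308946), was at 36.7, 34.8, 36.0 and 31.3 CPM in YAL and 48.9, 66.7, 56.0 and 66.7 CPM in YCRRF libraries (0.78 ± 0.16, adjusted p = 0.995 with edgeR and 0.00602 with DESeq2). These were the 2 genes that DESeq2 called higher, and every refed library exceeded every ad lib and every YCR library in both.

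Selp, which encodes P-selectin and is carried by megakaryocytes and aged HSCs, was at 83.0, 83.4, 87.2 and 77.4 CPM in YAL libraries and at 145, 143, 88.6 and 143 CPM in YCRRF libraries (0.65 ± 0.16). YCRRF replicate 3 lay just above the ad lib range, and the other 3 lay well above it. Ghr, the growth hormone receptor gene, was at 32.7, 26.4, 18.1 and 27.4 CPM in YAL and 49.0, 34.9, 59.6 and 55.3 CPM in YCRRF libraries (0.93 ± 0.24). Bgn, which encodes the matrix proteoglycan biglycan, was at 44.8 to 59.5 CPM in YAL and 75.9 to 82.8 CPM in YCRRF HSCs (0.60 ± 0.14). Dcp1a, of the mRNA decapping complex, was at 49.1 to 69.9 CPM in YAL and 76.6 to 111 CPM in YCRRF HSCs (0.69 ± 0.16). The small GTPase gene Rras was at 35.9 to 42.4 CPM in YAL and 54.0 to 59.9 CPM in YCRRF HSCs (0.53 ± 0.14). The orphan receptor gene Gpr146 was at 28.6 to 36.0 CPM in YAL and 44.1 to 78.1 CPM in YCRRF HSCs (0.84 ± 0.20). Ccdc137 was at 42.7 to 53.7 CPM in YAL and 62.2 to 74.7 CPM in YCRRF HSCs (0.53 ± 0.14). Apbb2 was at 3.84 to 7.58 CPM in YAL and 9.28 to 21.5 CPM in YCRRF HSCs (1.38 ± 0.35).

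**Figure D4:**
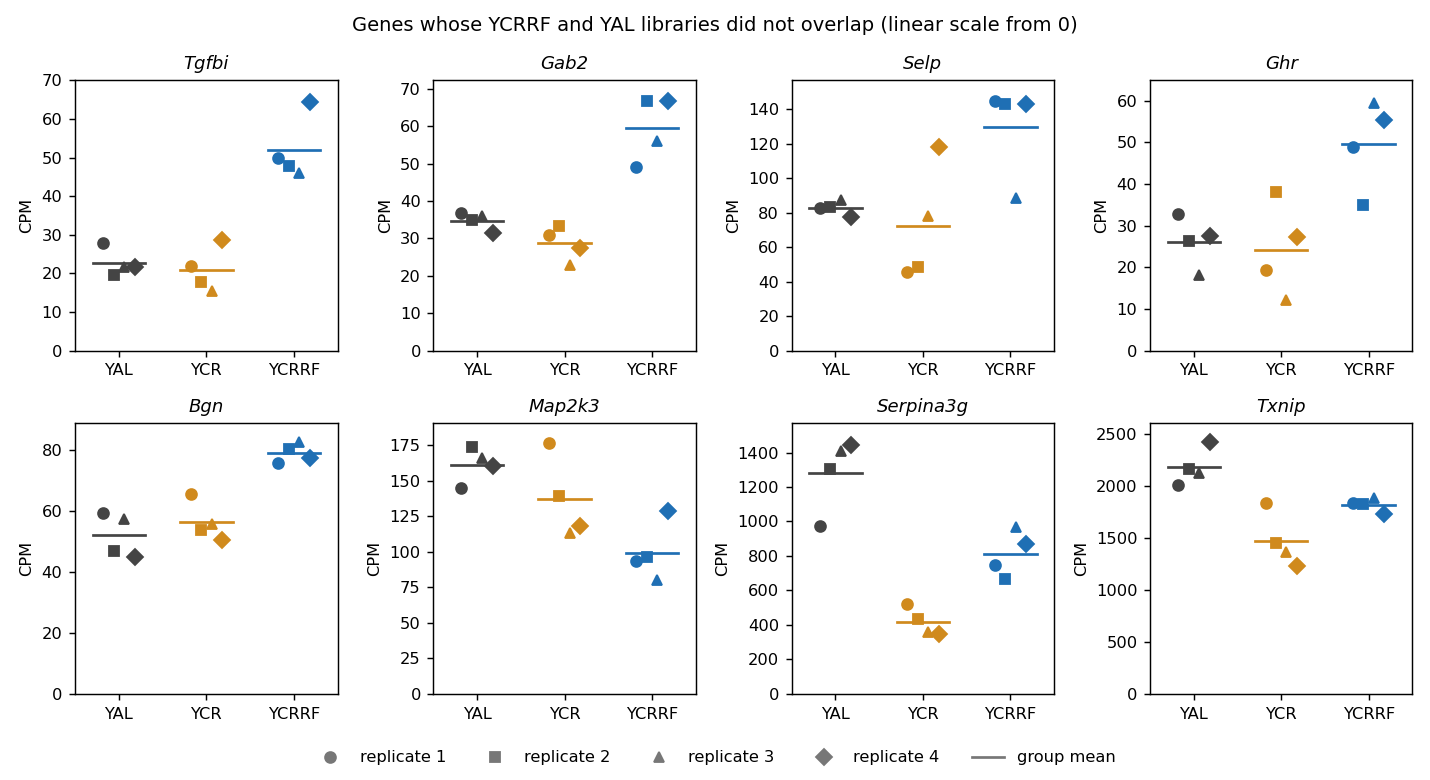
CPM of 8 genes outside the cell cycle in each library (marker shape: replicate number; bar: group mean; linear axes from 0). Tgfbi, Gab2, Selp, Ghr and Bgn are higher and Map2k3, Serpina3g and Txnip lower in all 4 YCRRF libraries than in all 4 YAL libraries, and for Serpina3g the YCR libraries lie lower still, at 349.5 to 521 CPM.

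Besides Prim1 and Rrm1, the lower genes of that rule included Map2k3, a kinase upstream of p38 (ENSMUSG00000018932, chromosome 11, 60932033 to 60952811). It was at 145, 173, 166 and 161 CPM in YAL and 93.4, 96.0, 79.8 and 128 CPM in YCRRF libraries (-0.70 ± 0.15, adjusted p = 0.995 with edgeR and 0.0491 with DESeq2). Tecpr2, linked to autophagy, was at 16.4, 24.9, 19.6 and 15.7 CPM in YAL and 9.27, 6.84, 4.25 and 7.43 CPM in YCRRF libraries (-1.46 ± 0.31, adjusted p = 0.00508 with DESeq2). Serpina3g, a serine protease inhibitor (ENSMUSG00000041481, chromosome 12, 104236245 to 104241939), was at 972, 1304, 1409.5 and 1442 CPM in YAL, 746, 666, 970.3 and 870.1 CPM in YCRRF and 521, 432, 359 and 349.5 CPM in YCR libraries. Its log2 fold change was -0.65 ± 0.15 in YCRRF and -1.62 ± 0.14 in YCR against YAL HSCs, where it was a DEG (adjusted p = 0.00119). The refed libraries lay above the 4 YCR and below the 4 YAL libraries, with YCRRF replicate 3 next to the lowest YAL library. It belongs to a cluster of near-identical Serpina3 genes, and how reads shared with its neighbours were counted is not given. The others were lower by similar steps. Atg2a, of autophagosome formation, was at 114 to 159 CPM in YAL and 82.3 to 95.6 CPM in YCRRF HSCs (-0.53 ± 0.14). Zmiz2, a transcriptional coregulator gene, was at 126 to 169 CPM in YAL and 83.0 to 113 CPM in YCRRF HSCs (-0.57 ± 0.14). Zfp346, a zinc finger gene, was at 40.1 to 53.5 CPM in YAL and 23.3 to 35.8 CPM in YCRRF HSCs (-0.73 ± 0.19). The ciliary gene Bbs9 was at 20.5 to 39.3 CPM in YAL and 10.8 to 19.6 CPM in YCRRF HSCs (-1.07 ± 0.27). Fgfbp3 was at 18.3 to 30.0 CPM in YAL and 6.67 to 14.1 CPM in YCRRF HSCs (-1.124 ± 0.29).

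Of the 13 genes that DESeq2 called lower, 11 had a mean under 5 CPM. Iglc3, an immunoglobulin light chain constant region, was at 8.33, 1.46, 3.14 and 2.06 CPM in YAL and at 0 in all 4 YCRRF libraries. A count of 0 allows up to 0.0820, 0.0898, 0.0894 and 0.270 CPM (3 counts per library, counting error only). Ccn3, which encodes a matricellular protein, was at 0.680, 4.28, 4.41 and 8.54 CPM in YAL and 0.0542, 0, 0 and 0.177 CPM in YCRRF libraries. Pyroxd2, an oxidoreductase gene, was at 1.81, 8.68, 10.5 and 8.44 CPM in YAL and 0.949, 1.1244, 1.1231 and 2.30 CPM in YCRRF libraries, where 1 YAL library lay in the refed range.

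Of the metabolic lists, cholesterol and fatty acid synthesis lay on the higher side, with 24 of 29 genes higher and a median of 0.23. At an unadjusted p below 0.05, 3 were higher (10.3%, against 1.81% of all genes). Fdft1, squalene synthase, was at 49.0, 44.3, 43.9 and 37.0 CPM in YAL and 56.4, 66.8, 58.1 and 62.9 CPM in YCRRF libraries (0.49 ± 0.15), without overlap. Sqle, squalene epoxidase, was at 98.0, 53.4, 38.3 and 46.2 CPM in YAL and 91.0, 83.0, 90.1 and 119 CPM in YCRRF libraries (0.70 ± 0.27). The sterol demethylation gene Msmo1 was at 79.7, 59.7, 43.8 and 35.4 CPM in YAL and 79.3, 78.7, 74.4 and 76.7 CPM in YCRRF libraries (0.50 ± 0.23). In both, YAL replicate 1 lay at the refed level and the other 3 YAL libraries below it. Without YAL replicate 1 the median was 0.36, with 8 genes higher at an unadjusted p below 0.05. Over all genes of that fit 700 of 20638 were at that p in either direction. Without YCRRF replicate 1 the median was 0.15, with 2 higher (against 2.09% of all genes). Of 20 genes of fatty acid oxidation 14 were lower (median -0.098) and 3 were lower at an unadjusted p below 0.05 (15%, against 1.88%). These were Cpt1a, Angptl4 and Pdk4. Without YCRRF replicate 3 the median was -0.049, with 5 such genes (against 2.77% of all genes). Angptl4, an inhibitor of lipoprotein lipase, was at 10.2 to 22.0 CPM in YAL and 6.01 to 11.2 CPM in YCRRF HSCs (-1.03 ± 0.33). Pdk4, which blocks pyruvate oxidation, was at 8.50, 10.7, 6.10 and 6.64 CPM in YAL and 4.17, 1.86, 1.23 and 0 CPM in YCRRF libraries (-2.11 ± 0.85). Pdk4 was also low in the YCR libraries (0, 3.20, 1.18 and 1.95 CPM). Glycolysis genes had a median of -0.074, with none at an unadjusted p below 0.05. Pkm, pyruvate kinase, was at 963, 986, 947 and 976 CPM in YAL, 857, 864, 868 and 899 CPM in YCRRF and 776, 759, 721 and 753 CPM in YCR libraries. In YCR HSCs it was a DEG against YAL (-0.36 ± 0.048, adjusted p = 0.0170). The refed libraries lay between the other groups without overlap, with a log2 fold change of -0.15 ± 0.078 against YAL.

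Nutrient signalling gave a mixed picture. Of 23 genes of insulin and IGF signalling to FOXO, 12 were higher and 11 lower, with a median of 0.048, 3 in each direction at an unadjusted p below 0.05 (13% each, against 1.88% lower and 1.81% higher of all genes). Txnip, an inhibitor of glucose uptake, was at 2008, 2167, 2126 and 2427 CPM in YAL, 1842, 1828, 1884 and 1729 CPM in YCRRF and 1838, 1458, 1368 and 1233.65 CPM in YCR libraries. Its log2 fold change in YCRRF against YAL was -0.26 ± 0.084. Klf2, a quiescence factor and FOXO target, was at 4.01 to 8.08 CPM in YAL and 1.77 to 3.40 CPM in YCRRF HSCs (-1.11 ± 0.44). The kinase gene Sgk1 was at 3.48 to 8.20 CPM in YAL and 7.96 to 12.2 CPM in YCRRF HSCs (0.99 ± 0.37). Of 25 genes of mTORC1 and autophagy 16 were higher (median 0.020). Rptor, which encodes the mTORC1 subunit Raptor, was at 28.2 to 44.4 CPM in YAL and 40.9 to 54.7 CPM in YCRRF HSCs (0.48 ± 0.19). Of 16 glucocorticoid response genes 12 were higher (median 0.22), among them the PI3K inhibitor gene Pik3ip1 (303, 319, 259.5 and 302 CPM in YAL, 364, 398, 294 and 407 CPM in YCRRF, 0.31 ± 0.13). Of 19 circadian genes 15 were higher (median 0.17). The median was 0.32 without YCRRF replicate 3 and 0.11 without YAL replicate 4, where 12 of 19 were higher. Scores of this list overlapped between the groups, with YAL replicate 1 at 0.25 above YCRRF replicates 1 and 2 at 0.073 and 0.10. The clock output factor Tef was at 29.8 to 65.4 CPM in YAL and 63.3 to 90.8 CPM in YCRRF HSCs (0.68 ± 0.24). Per3 was at 45.2 to 61.9 CPM in YAL and 64.5 to 76.3 CPM in YCRRF HSCs (0.42 ± 0.15). The hour of collection is not given in the sources used here.

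Of 22 immediate early genes tested of 26, 15 were higher (median 0.15), 4 of them at an unadjusted p below 0.05 (18.2%, against 1.81% of all genes) and 4 in every refed library (against 1.27%). Klf2 and Myc were lower at an unadjusted p below 0.05 (9.09%, against 1.88%). Without YCRRF replicate 3 the median was 0.32, with 7 higher at an unadjusted p below 0.05 and 1 lower (against 2.42% and 2.77% of all genes). Without YCRRF replicate 1 it was 0.089, with 3 higher and 2 lower (against 2.09% and 2.94%). Without YCRRF replicate 4 it was 0.15, with 2 higher and 0 lower (against 2.19% and 2.27%). Nr4a1, a nuclear receptor induced within minutes of a stimulus, was at 11.3, 10.2, 14.7 and 9.33 CPM in YAL and 20.5, 17.0, 16.8 and 38.3 CPM in YCRRF libraries (1.03 ± 0.32). Nfkbia, which encodes the NF-kappaB inhibitor, was at 152 to 187 CPM in YAL and 195 to 237 CPM in YCRRF HSCs (0.31 ± 0.12). The scarce Egr3 was at 0.0567, 0.0594, 0 and 0.527 CPM in YAL and 2.06, 0.8285, 0.545 and 3.71 CPM in YCRRF libraries. Such genes respond to handling of cells as well as to signals in the animal, and the part of handling was not tested. In the unfolded protein and Atf4 response, Asns, asparagine synthetase, was at 24.3 to 44.3 CPM in YAL and 43.2 to 66.7 CPM in YCRRF HSCs (0.67 ± 0.24). The chaperone cofactor gene Sdf2l1 was at 21.9, 13.2, 15.3 and 16.2 CPM in YAL and 26.4, 20.4, 61.6 and 20.3 CPM in YCRRF libraries (0.96 ± 0.37), with YCRRF replicate 3 far above the others and a log2 fold change of 0.43 without it. Herpud1, of ER-associated degradation, was at 113 to 140.5 CPM in YAL and 89.9 to 106 CPM in YCRRF HSCs (-0.32 ± 0.12).

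Interferon and cytokine genes had medians close to that of all genes after refeeding. Of 39 interferon-stimulated genes tested, 22 were higher and 17 lower, with a median of 0.026, beside -0.34 in YCR HSCs, where 37 of 39 were lower and 3 were DEGs. Stat2, a transducer of the interferon receptor, was at 84.6 to 94.8 CPM in YAL and 106 to 129 CPM in YCRRF HSCs (0.31 ± 0.12). The antiviral gene Oas1a was at 46.1 to 55.9 CPM in YAL and 34.0 to 41.2 CPM in YCRRF HSCs (-0.38 ± 0.15). Slfn2, a Schlafen family gene in both lists of interferon and cytokine response, was at 97.3, 122, 133 and 119 CPM in YAL, 88.9, 103, 94.7 and 104 CPM in YCRRF and 26.7, 37.6, 20.3 and 29.6 CPM in YCR libraries. It was a DEG in YCR HSCs (-2.04 ± 0.18, adjusted p = 0.00119), and in YCRRF HSCs its log2 fold change was -0.27 ± 0.13, with the groups overlapping. The 21 genes of cytokine feedback and STAT5 had a median of -0.011 in YCRRF HSCs, beside -0.34 with 5 DEGs in YCR HSCs. In the same way the 17 heat shock genes tested had a median of 0.11 with none at an unadjusted p below 0.05, beside 0.34 with 4 DEGs of 18 in YCR HSCs. That of YCRRF HSCs was 0.034 without YCRRF replicate 3 and -0.042 without YCRRF replicate 1. Of 21 genes of MHC presentation 16 were higher (median 0.076).

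**Figure D5:**
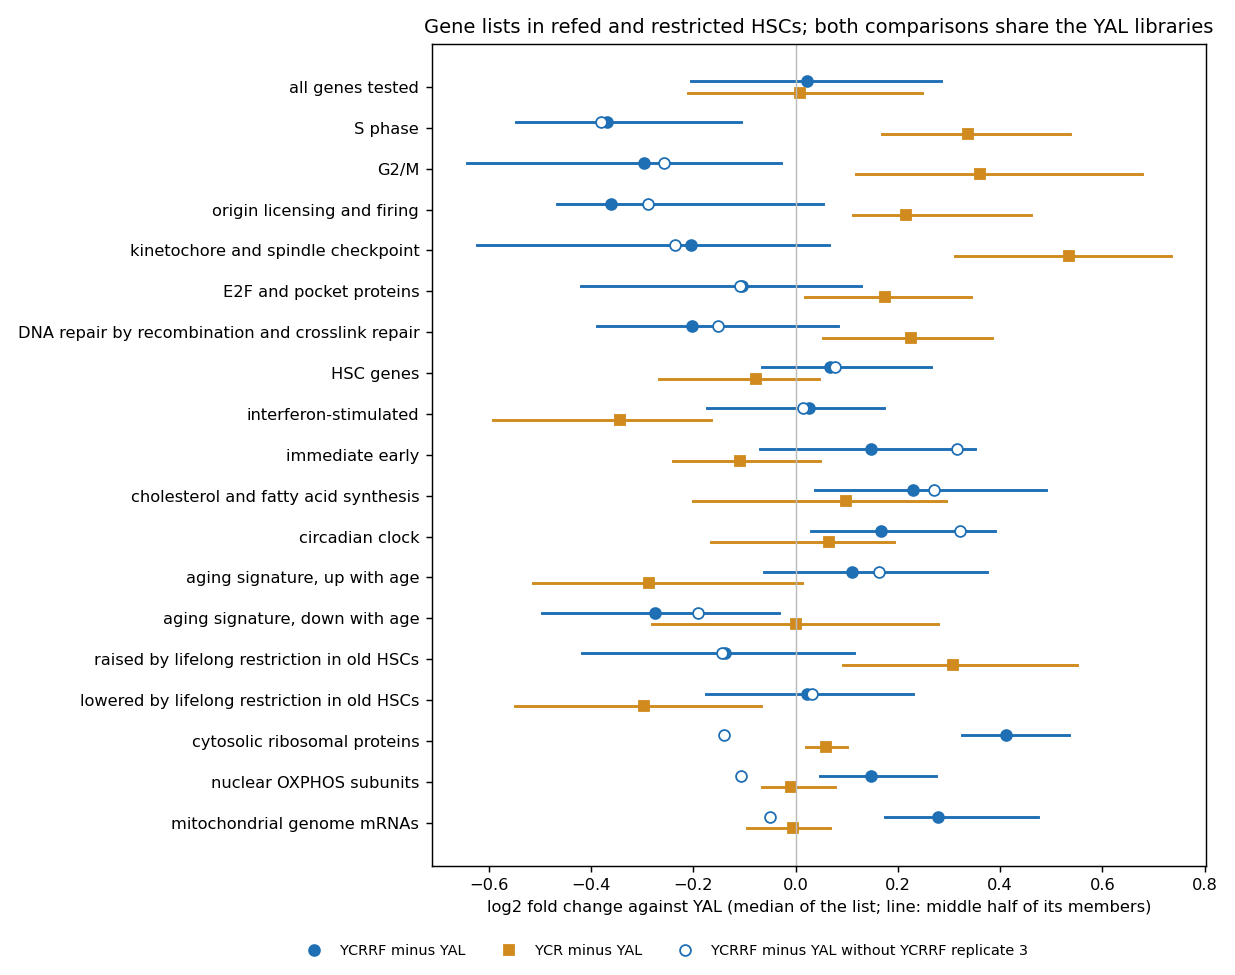
Median log2 fold change of 18 gene lists and of all genes tested (filled circles: YCRRF minus YAL; squares: YCR minus YAL; lines: the middle 50% of the members; open circles: YCRRF minus YAL without YCRRF replicate 3), both against the same YAL libraries. The cell cycle lists for S phase, G2/M, licensing and kinetochore genes lie at -0.37 to -0.21 in YCRRF and at 0.22 to 0.53 in YCR HSCs, and the ribosomal protein list moves from 0.41 to -0.14 when that library is left out.

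Ribosomal protein and respiratory genes showed how much 1 library could decide. Of 86 cytosolic ribosomal protein genes tested, 82 were higher in YCRRF HSCs, with a median of 0.41, and none was at an unadjusted p below 0.05. Their scores were -0.29, 0.074, 1.40 and -0.21 in YCRRF libraries 1 to 4 and 0.10, -0.17, 0.11 and -0.055 in YAL libraries 1 to 4, and replicate 3 alone stood above the ad lib range. Without YCRRF replicate 3, 83 of the 86 were lower, with a median of -0.14. Nuclear genes of the respiratory chain went from 69 of 82 higher (median 0.15) to 71 of 82 lower (median -0.11). The median of mRNAs of the mitochondrial genome went from 0.28 to -0.050 over 11 genes tested, and that of replication-dependent histones from 0.30 over 26 genes to -0.53 over 29. Sdhd, a subunit of succinate dehydrogenase, was lower in every refed library, at 174, 174, 155 and 157 CPM in YAL and 145, 124, 142 and 119 CPM in YCRRF libraries (-0.32 ± 0.12). The histone gene Hist3h2a was higher in each, at 8.54 to 11.6 CPM in YAL and 12.8 to 17.3 CPM in YCRRF HSCs (0.57 ± 0.26).

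Markers of mature blood cells differed between libraries as well. The summed level of 13 B cell markers was 95.8 to 193 CPM in the YAL libraries and 47.9 to 86.2 CPM in the YCRRF libraries, and the groups did not overlap (exact permutation test, two-sided, p = 0.0286, the smallest possible, adjusted p = 0.371 over 13 measures). Of 10 B cell markers tested 8 were lower, and 4 were lower at an unadjusted p below 0.05 (40%, against 1.88% of all genes), with a median of -1.92. Without YAL replicate 1 there was 1 such gene, with a median of -0.61 over 11 tested. The sums gave p = 0.0571 by the exact permutation test without YCRRF replicate 3. Ighm, the immunoglobulin heavy chain gene, was at 48.4, 11.4, 37.7 and 31.4 CPM in YAL and 1.63, 13.4, 0.136 and 0 CPM in YCRRF libraries. Cd79a, of the B cell receptor, was at 24.2, 9.33, 5.34 and 9.60 CPM in YAL and 2.90, 3.88, 0 and 1.24 CPM in YCRRF libraries. Ms4a1, which encodes CD20, was at 9.86, 3.62, 1.24 and 2.95 CPM in YAL and 0, 0.503, 0.613 and 0 CPM in YCRRF libraries. In the YCR libraries the same sum was 87.9, 1188, 1375 and 632 CPM. Erythroid markers summed to 1579 to 1806 CPM in YAL and 1330 to 1599 CPM in YCRRF libraries (p = 0.0571 by the exact permutation test, adjusted p = 0.371). Of 13 tested 8 were lower, 5 of them at an unadjusted p below 0.05 (38.5%, against 1.88%), and 0 without YAL replicate 3. The globin genes stood out in YAL replicate 3. Hbb-bs was at 3.74, 3.74, 40.3 and 2.95 CPM in YAL and 0.813, 2.90, 3.61 and 2.12 CPM in YCRRF libraries, and Hba-a1 at 2.72, 2.58, 17.2 and 2.74 CPM in YAL and 0.271, 2.90, 0.272 and 0.354 CPM in YCRRF libraries. Slc4a1, the red cell anion exchanger, was at 0.170 to 3.22 CPM in YAL and 0 to 0.434 CPM in YCRRF HSCs.

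Granulocyte markers summed to 128.5 to 830 CPM in YAL and 472 to 1806 CPM in YCRRF libraries (p = 0.114 by the exact permutation test, adjusted p = 0.495), and 8 of 12 tested were higher. Prtn3, which encodes a neutrophil granule protease also present in progenitors, was at 195, 122.91, 183 and 134 CPM in YAL and 177, 209, 238 and 198 CPM in YCRRF libraries (0.38 ± 0.17). The macrophage gene C1qa was at 1.69 to 8.16 CPM in YAL and 0.136 to 2.82 CPM in YCRRF HSCs. T cell markers summed to 17.9 to 33.0 and 17.0 to 35.3 CPM, and monocyte and macrophage markers to 465 to 591 and 495 to 585 CPM. The part that other cells in the sort had in the differences between the groups was not tested.

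Genes tied to aging were described with a signature drawn up elsewhere, and those tied to HSC state with a list chosen here. Among 30 HSC genes, Pdzk1ip1, a marker of HSCs, was at 389, 315, 366 and 357 CPM in YAL and 391, 456, 553 and 423 CPM in YCRRF libraries (0.36 ± 0.13). Sult1a1, a sulfotransferase gene, was at 171, 166, 204 and 211 CPM in YAL and 219, 244, 259.7 and 222 CPM in YCRRF libraries (0.33 ± 0.12). Robo4, a guidance receptor gene of HSCs and endothelium, was at 69.7, 124, 66.7 and 91.7 CPM in YAL and 64.4, 62.7, 55.0 and 57.0 CPM in YCRRF libraries (-0.56 ± 0.20). These 3 were picked for their small p, and none overlapped between the groups. Among the 30, every refed library lay above the ad lib range in 2 genes (against 1.27% of all genes). In 1 gene every refed library lay below it (against 1.93%). Of 177 genes tested from a consensus signature of genes that are higher in old HSCs, 117 were higher in refed than in ad lib young HSCs, with a median of 0.11. Of these 14 were higher at an unadjusted p below 0.05 (7.91%, against 1.81%), with 3 lower. Selp and Ghr are among them, as is the complement gene C4b, at 0.227, 4.10, 0.791 and 0.949 CPM in YAL and 5.31, 14.9, 29.0 and 4.24 CPM in YCRRF libraries (3.12 ± 0.87). Scores of this list were 0.15, 0.20, -0.016 and 0.20 in YCRRF libraries 1 to 4, with replicate 3 inside the ad lib range. Without replicate 3 the median was 0.16 with 26 genes higher at an unadjusted p below 0.05 (against 1.81% of all genes with that library and 2.42% without it). Without YCRRF replicate 2 the median was 0.10 with 10 such genes, and without YCRRF replicate 4 it was 0.087 with 13 (against 1.78% and 2.19% of all genes). Without YAL replicate 4 the median was 0.13 with 8 such genes. Over all genes of that fit 657 of 20383 were at that p in either direction.

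Of 39 genes that are lower in old HSCs, 29 were lower in refed HSCs, with a median of -0.27. Scores were 0.057, 0.097, -0.048 and -0.10 in YAL and -0.14, -0.15, -0.43 and -0.16 in YCRRF libraries, every refed library below every ad lib one. Only 4 of the 39 belong to the cell cycle lists, and without them the median was -0.19 over 35 genes. Arhgap30 was at 81.4, 108, 90.9 and 77.1 CPM in YAL and 48.5, 62.5, 62.4 and 62.6 CPM in YCRRF libraries (-0.60 ± 0.16). In YCR HSCs the 2 lists had medians of -0.29 and 0.00042, against the same ad lib libraries.

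Genes that lifelong CR changed in old HSCs were also followed, since they were chosen on other libraries. With the same test 1511 of 27150 genes were DEGs between OCR and OAL HSCs (5.57%), from males of 24 to 26 months with 4 libraries each, 689 higher and 822 lower. Of the 689, 679 were tested here, and 432 were lower in refed than in ad lib young HSCs, with a median of -0.14 and 53 lower at an unadjusted p below 0.05 (7.81%, against 1.88%), with 13 higher (1.91%, against 1.81%). Without YCRRF replicate 2 the median was -0.085, with 29 lower and 19 higher, and without YCRRF replicate 1 it was -0.20, with 89 lower and 12 higher. Over all genes tested 2.30% were lower and 1.78% higher without replicate 2, and 2.94% and 2.09% without replicate 1. Of the 689 genes 129 belong to the cell cycle lists. Without these the median was -0.084 over 550 genes tested, with 28 lower (5.09%) and 12 higher (2.18%) at an unadjusted p below 0.05, and 14 lower and 16 higher without YCRRF replicate 2. Only members of the lists were removed. The 28 still include replication and mitosis genes outside them, such as Pola2, Esco2, Prc1 and Espl1. Of the 822 genes that lifelong CR lowered, 813 were tested, and these were balanced, with 431 higher and 382 lower and a median of 0.022.

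The refed effect was last compared between ages, in a fit with 4 OAL libraries and 2 OCRRF libraries of mice refed for 4 weeks after lifelong CR. The difference of the effects, (OCRRF minus OAL) minus (YCRRF minus YAL), called 0 of 33502 genes with edgeR (0%), with 2142 at an unadjusted p below 0.05, and 36 with DESeq2. In the simulation this fit recovered 1.1% of genes changed 2-fold, so that differences between the ages were mostly beyond its reach. In that fit the median log2 fold change of S phase genes was -0.38 in young and -0.19 in old HSCs, that of G2/M genes -0.31 and -0.022, and that of all genes 0.038 and 0.17. The 3 genes of smallest p in which the refed effect was higher in old HSCs were Zrsr1, Serpina3g and Tecpr2. Zrsr1, a splicing factor gene, had the smallest adjusted p of all genes (0.0852). It was at a mean of 9.40 CPM in YAL, 7.24 CPM in YCRRF and 6.30 CPM in OAL HSCs, and at 36.6 and 40.7 CPM in the 2 OCRRF libraries. Serpina3g was at means of 564 CPM in OAL and 751 CPM in OCRRF HSCs, a log2 fold change of 0.41 beside -0.67 in young HSCs. In the other direction stood Bgn, Tmem50b and C4b. Bgn was at means of 66.0 CPM in OAL and 51.2 CPM in OCRRF HSCs (-0.37 beside 0.59), and Tmem50b at 54.9 and 43.1 CPM (-0.35 beside 0.65).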

How the data were processed

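Raw read counts per gene were deposited by the authors, 1 file per library with 55376 gene symbols, and no column of another sample was left out (0 such columns). According to the methods and the labels, RNA of sorted HSCs was sequenced, reads were trimmed with trim galore and cutadapt and aligned to mm10 with STAR using GENCODE M22 genes, and counts were made with featureCounts. How strand and multi-mapping reads were treated is not given in the sources used here, so genes with near-identical copies (globins, Serpina3 genes, MHC genes, ribosomal proteins) and overlapping genes are uncertain.

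Genes were filtered with filterByExpr, scaled by TMM and tested with the quasi-likelihood test of edgeR 4.0.16 in R 4.3.3 on the 4 YCRRF and 4 YAL libraries, with Benjamini-Hochberg adjustment over all genes tested. DEGs had an adjusted p under 0.05 and a fold change over 1.2. CPM values were scaled with TMM factors of the young libraries, and scores used log2 CPM with a prior count of 2. Fold changes are given as log2 with a standard error derived from the test. It is the absolute log2 fold change over the square root of the F statistic. DESeq2 1.42.0 was an alternative, and its 138 genes without an adjusted p stayed out of its counts. Single values per library were compared by exact permutation tests over 70 regroupings. The test was tried on counts simulated from these libraries with 200 changed genes. Gene lists and members were chosen with earlier results of these data known.

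Genes were named by a rule: those the study names, the 10 in each direction with the smallest p among genes without overlap and at least 5 CPM, up to 3 of smallest p per list, the 4 most abundant genes of all cell cycle lists, up to 5 that DESeq2 called in each direction and 3 in each direction of the comparison of ages. Those of the comparison of ages also had a mean of at least 5 CPM. Of 154 genes picked, 102 are named where they were at an unadjusted p below 0.05, abundant or named by the study. Myc, Pkm, Slfn2 and Zfp365 were added after their values were seen. Positions are those of GENCODE M21 on GRCm38, the same assembly as mm10.

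Same-numbered YAL and YCRRF libraries did not deviate together (correlations of 0.0029, -0.0044, -0.045 and -0.056), so the numbers do not pair them. Alternatives were DESeq2, its size factors, other filters, other TMM factors, a fit with YCR and leaving out each library. The limits that a count of 0 allows cover counting error only.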

Additional observations from a re-analysis of the deposited data

Results flagged for a closer look

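Values were examined for single libraries far from the other 3 of their group, over 274 groups of 4 values of the genes and lists named and the library measures, and 24 such values were found, 6 in YAL and 18 in YCRRF libraries. Chance gives about 1 in 20 groups. YCRRF replicate 3 gave 9 of the 24. It had 81215 CPM of ribosomal protein mRNAs, 4.09% of counts on mitochondrial genes and 13.2% on the 10 most abundant genes. Its scores were -0.085 for HSC genes, against 0.077 to 0.098 in the other 3, -0.25 for interferon-stimulated genes, against -0.015 to 0.011, and -0.43 for genes that are lower with age, against -0.16 to -0.14. It was also apart in Selp (88.6 CPM, against 143.0 to 145 CPM), Sdf2l1 (61.6 CPM, against 20.3 to 26.4 CPM) and the olfactory receptor gene Olfr732 (7.90 CPM, against 0.118 to 0.867 CPM).

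YCRRF replicate 4 had the lowest total, 11102898 counts, and stood apart in Pyroxd2 (2.30 CPM). YCRRF replicate 1 stood apart in Dlgap5, at 8.37 CPM against 3.47 to 4.05 CPM in the other 3, and was lowest in Arhgap30 (48.5 CPM) and in Tmem50b (39.8 CPM). YCRRF replicate 2 was highest in Ighm (13.4 CPM), Hba-a1 (2.90 CPM), Zrsr1 (10.2 CPM) and Spib (0.651 CPM, with 0 in the other 3).

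Among ad lib libraries, YAL replicate 3 had 8.19 CPM of Mki67, against 36.4 to 37.5 CPM in the other 3, and 32.4 CPM of Kdr, against 19.2 to 21.1 CPM. It also had 40.3 CPM of Hbb-bs, against 2.95 to 3.74 CPM, and 17.2 CPM of Hba-a1. YAL replicate 2 was apart in Atg2a (159 CPM) and YAL replicate 4 in Egr3 (0.527 CPM). The causes of these values were not tested.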

How the results depend on the processing

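The count of 0 DEGs between YCRRF and YAL held under the other size factors, both stricter filters, TMM factors of abundant genes, the adjusted p alone and a fit with YCR. It was 15 with DESeq2 (2 higher, 13 lower) and 40 without a filter on low counts (19 higher, 21 lower), and 0 to 1 when 1 library was left out, the 1 being Igkc without YCRRF replicate 2. The median of S phase genes was -0.42 to -0.25 and that of G2/M genes -0.37 to -0.21 when each library was left out in turn, and neither changed direction under any alternative run. The number of G2/M genes lower at an unadjusted p below 0.05 went from 3 (without YAL replicate 2 or YCRRF replicate 2) to 13 (without YCRRF replicate 1), a check chosen after seeing the data. Over all genes tested the share was 2.30% without YCRRF replicate 2 and 2.94% without YCRRF replicate 1. With the replicate number as a block, which does not pair these libraries, there were 0 DEGs and 638 genes at an unadjusted p below 0.05.

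The difference of the refed effect between ages called 36 genes with DESeq2, 2 without a filter, 1 among genes of at least 5 CPM and 0 to 2 when each library was left out. The number of DEGs between YCR and YAL was 454 with DESeq2, 368 without a filter, 110 among genes of at least 5 CPM and 6 to 28 when each library was left out (6 without YCR replicate 2, 28 without YCR replicate 1). The log2 fold changes of 6 named genes turned sign when 1 library was left out. With each library left out in turn, that of Bmpr1a went from -0.21 (without YAL replicate 2) to 0.43, that of Ccnd2 from -0.067 to 0.0048 (without YAL replicate 3), that of Mki67 from -0.59 to 0.021 (without YCRRF replicate 3), that of Spi1 from -0.16 to 0.025 (without YCRRF replicate 1), that of Sqstm1 from -0.012 (without YAL replicate 3 or YCRRF replicate 4, and -0.0033 without YAL replicate 2) to 0.041 and that of Ulk1 from -0.042 (without YCRRF replicate 2, and -0.033 without YAL replicate 3) to 0.19. The causes were not tested. The shallow YCRRF replicate 4, at 11102898 counts, limits what can be seen in scarce genes.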

Other observations

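Small structural RNAs and rRNA genes were among the 19 genes called higher in YCRRF without a filter on low counts, and most followed YCRRF replicate 3. Gm42418 and CT010467.1, which overlap rDNA sequence, together with the mitochondrial rRNA genes mt-Rnr1 and mt-Rnr2, had log2 fold changes of 1.35, 1.39, 1.053 and 0.96 with their highest level in that library, and Rn7sk, the 7SK RNA, one of 1.77. Neutrophil granule genes formed another group of those calls. S100a8, S100a9, Camp and Ngp had log2 fold changes of 2.15, 2.08, 2.41 and 1.80, with S100a9 and Ngp highest in YCRRF replicate 2 and the other 2 in YCRRF replicate 3. The ad lib libraries were split in these 4 genes. YAL replicate 4 was at 154, 154, 56.3 and 177 CPM, above YCRRF replicate 4 at 69.4, 56.9, 27.1 and 62.9 CPM. YAL replicates 1 and 2 were at 4.42 CPM or less in each. Among the 21 called lower were the B cell genes Ighm, Igkc, Cd79a and Ly6d at -3.03, -3.13, -2.57 and -4.24. The part of other cells in the sort was not tested.

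Without YCRRF replicate 3 the summed level of megakaryocyte markers was 2082 to 2418 CPM in the other 3 YCRRF libraries and 1906 to 2081 CPM in the YAL libraries (exact permutation test, two-sided, p = 0.0286, the smallest possible with 3 against 4 here, adjusted p = 0.371 over 13 measures). With it the range was 1925 to 2418 CPM (p = 0.200 by the exact permutation test). Selp is one of these markers.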
